A study of Mus musculus with 2 samples.

Results

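HSP70 chaperones and their HSP110 relatives were followed in RNA sequencing of mouse pancreatic islets as 10 genes, namely Hspa1a, Hspa1b, Hspa1l, Hspa2, Hspa8, Hspa9, Hspa13, Hspa4, Hspa4l and Hsph1. They were taken by gene name from a count table of 44713 genes, with Hspa5 of the endoplasmic reticulum left out of the set. All 10 were listed, and 8 reached a mean of at least 1 CPM (counts scaled to library size). The db/db library came from C57BL/6 mice labelled Lepr-/-, which lack a working leptin receptor, become obese and serve as a model of type 2 diabetes. The db/m library came from C57BL/6 mice labelled wild type. By their name, db/m mice usually carry 1 db allele, which the labels do not state. The series text speaks of triplicates, of which 1 library per group was analysed here, and the sources used here give no age, sex or further treatment of the mice, nor how many were pooled in a library. Differences therefore have no replicate check and describe these libraries, not the genotypes.

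HSP70 proteins bind exposed hydrophobic stretches of unfolded or newly made proteins and release them in a cycle driven by ATP. J-domain proteins bring clients and start ATP hydrolysis, and nucleotide exchange factors, the HSP110 proteins among them, reset the cycle by letting ADP leave. Some members are made at all times, such as Hspa8 in the cytosol and Hspa9 in mitochondria. Others, above all Hspa1a and Hspa1b, are made in large amounts after heat or other protein damage, when heat shock factor HSF1 binds repeats of nGAAn near their start sites.

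The start regions of Hspa1a, Hspa1b and Hsph1 are shown because these genes had the lowest ratios among the members. Each line runs 5′ to 3′ on the gene's strand over the 120 bases before the start site, from RefSeq on GRCm38.p6. Capitals mark the inverted repeats GAANNTTC or TTCNNGAA, which are a pair of heat shock units, and CCAAT on either strand. Hspa1a covers chr17:34972157-34972276, Hspa1b chr17:34959239-34959358 and Hsph1 chr5:149636337-149636456, all on the minus strand. The annotated span of Hsph1 reaches up to 149636498. Its line thus lies before the start site of the window used, but inside the annotated gene.

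Hspa1a: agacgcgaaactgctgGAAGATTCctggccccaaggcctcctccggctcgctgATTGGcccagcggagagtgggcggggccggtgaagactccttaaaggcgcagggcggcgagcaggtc
Hspa1b: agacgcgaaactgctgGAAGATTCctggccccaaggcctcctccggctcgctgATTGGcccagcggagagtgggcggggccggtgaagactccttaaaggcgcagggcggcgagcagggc
Hsph1: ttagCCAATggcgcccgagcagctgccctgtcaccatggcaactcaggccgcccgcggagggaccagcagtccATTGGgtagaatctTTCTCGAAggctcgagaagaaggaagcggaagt

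Hspa1a and Hspa1b share 119 of these 120 bases. Over the whole window of 300 bases, from 250 before to 50 after the start, they differ at 4 positions. Counted from 1 at the 5′ end of the window, with the Hspa1a base first, these are C44T, T47C, T249G and C276T. Both hold GAANNTTC with its first base at position -104 from the start and CCAAT at position -67. Counted from the start of its window, Hsph1 holds TTCNNGAA at position -33 and CCAAT at -116 and -47. Just after that start it also holds 3 units in a row, GAANNTTCNNGAA read on the other strand, first base at position 37. That match is shown in capitals within chr5:149636287-149636306.

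Hsph1, 3 units: tgcagaTTCTGGAAAGTTCt

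RefSeq windows were used for 7 of the 10 members (not Hspa8, Hspa9 and Hspa13), 8 windows in all since Hsph1 has a further start. In its other window the 3 units began at position 16, and the TTCNNGAA before the start at position -54. Of 32851 mouse start windows of this length, 7.86% held GAANNTTC, 8.52% TTCNNGAA and 0.603% the 3 units in a row, on both strands, and every match to 3 units also holds each of the pairs. CCAAT stood in 37.4% of windows, and among the members also in those of Hspa2 (position -29) and Hspa1l (-57). None of the 3 repeat patterns was found in the windows of Hspa1l, Hspa2, Hspa4 and Hspa4l, which says only that these letters are not there. The windows of Hspa2 and Hspa4l lie wholly inside the annotated genes, so the bases before their annotated 5′ ends were not searched. A match is a description of sequence and not a binding site.

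Depth and makeup of the libraries bear on all values. The totals were 16271129 counts for db/m and 18233695 for db/db, and after TMM scaling (trimmed mean of M values) 1 count was worth 0.0653 and 0.0516 CPM. Of the 32 acinar markers, 31 were in the table, and they held 73.2% of the db/m counts and 73.1% of the db/db counts. The 7 islet hormone genes were all detected but held 0.147% and 0.193%. They did not share a direction by the rule for calls given below. Gcg (3.99-fold), Sst (8.79-fold), Ppy (6.44-fold) and Pyy (5.72-fold) were higher in db/db, and Ins1 was lower (2.11-fold). Ins2, with 15757 counts in db/m and 20944 in db/db (ratio 1.05), and Iapp (ratio 1.69) were not called. The labelled source, islet cells, was thus a small part of both libraries by marker counts, and the values below are for the mixture. In such bulk RNA, fewer cells of a type and less RNA per cell cannot be told apart. Duct, leukocyte, endothelial and stellate markers summed to between 5.55 and 61.1 CPM per list in db/m and between 7.54 and 48.3 CPM in db/db, and among those in the table the only marker at 0 was a leukocyte gene in db/db. By the same rule, 2 of 4 endothelial markers compared and 1 of 4 stellate markers were lower, 1 of 2 leukocyte markers was higher, and 0 of 5 duct markers were called. Of the 31 acinar markers, 3 were lower and 3 higher. Over all genes compared, the shares were 4.04% lower and 3.83% higher. The part of these cell-type differences in the chaperone results was not tested.

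Each ratio below is db/db over db/m and carries an exact 95% interval for counting error alone. A gene was called when the ratio was at least 2-fold in either direction, the mean at least 1 CPM and the interval excluded 1. Of the 10 members, 4 were called lower in db/db (Hspa1a, Hspa1b, Hsph1 and Hspa8), 0 were called higher, 4 were called in neither direction and 2 were too low to compare. Over all 10300 genes compared, 4.04% were called lower and 3.83% higher. The lower calls were 51.3% of all calls with TMM and 32.9% with total counts, a scaling that adds 0.18 to every log2 ratio. The 4 calls among the members were the same genes with either scaling. The median log2 ratio was -1.08 over the 8 members compared and 0.02 over all genes compared.

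**Figure D1:**
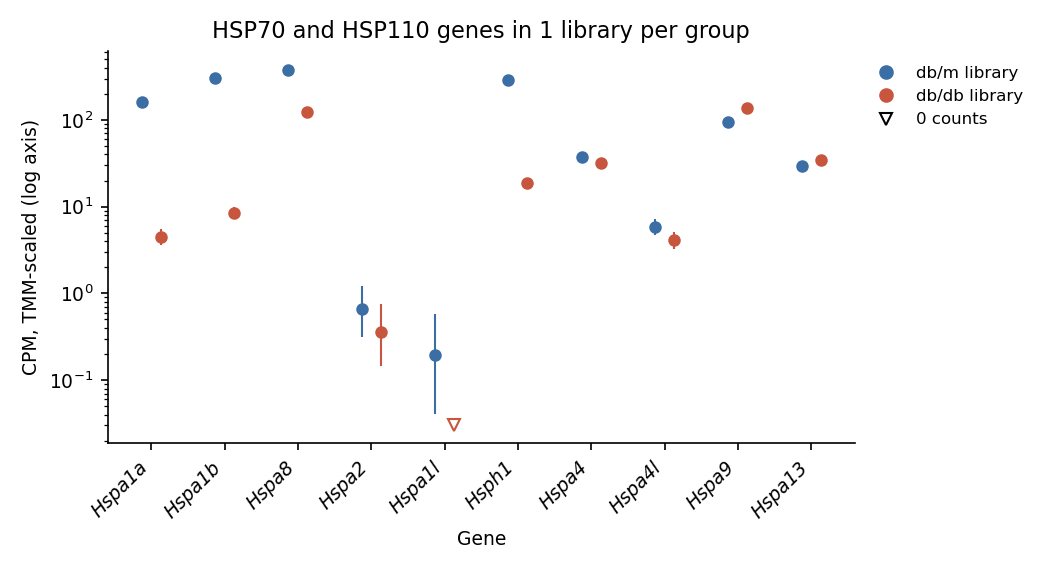
Level of each member in CPM after TMM scaling, on a log axis, with 1 point per library and bars for the exact 95% Poisson counting interval. Hspa1a, Hspa1b and Hsph1 stood between 161 and 301 CPM in db/m and between 4.49 and 18.7 CPM in db/db. Hspa4, Hspa4l and Hspa13 each differed by less than 1.5-fold between the libraries.

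The heat-inducible HSP70 genes showed the widest gap. Hspa1a, on chromosome 17 (34969359 to 34972156 in GRCm38), had 2463 counts in db/m and 87 in db/db, or 161 and 4.49 CPM. This was a 35.8-fold lower level in db/db (28.9 to 44.9). Hspa1b, its neighbour on the same chromosome (34956429 to 34959238), had 4613 and 164 counts, or 301 and 8.46 CPM, and was 35.6-fold lower (30.5 to 41.8). Both encode the major stress-induced HSP70 of the cytosol and nucleus. Ordered from the lowest ratio, Hspa1a was at place 6 and Hspa1b at place 7 of the 10300 genes.

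Hspa1a and Hspa1b are near-identical copies, and the sources used here do not say how reads that match both were counted, so their separate values are uncertain. Their sum does not depend on how reads were divided between the copies. It would change if reads matching both had been dropped or counted for both, which was not tested. Summed, they had 7076 counts in db/m and 251 in db/db and were 35.7-fold lower in db/db (31.4 to 40.6). Hspa1a gave 34.8% of the summed counts in db/m (exact binomial interval 33.7% to 35.9%) and 34.7% in db/db (28.8% to 40.9%). The split of the assigned counts was thus the same in both libraries within counting error. How far the handling of reads that match both copies sets this split was not tested. Both genes lack introns, with annotated lengths of 2798 and 2810 bases. As the reads were assigned, Hspa1a stood at 57.5 and Hspa1b at 107 CPM per kb in db/m, and at 1.60 and 3.01 CPM per kb in db/db. The difference between the copies carries the uncertainty of that assignment.

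Hspa8, the constitutive cytosolic HSP70 (HSC70) that also strips clathrin from vesicles, was the other cytosolic HSP70 gene called. On chromosome 9 (40801276 to 40805202), it had 5833 counts in db/m and 2377 in db/db, or 381 and 123 CPM, a 3.1-fold lower level in db/db (2.96 to 3.26). It was at place 122 of the 10300 genes from the lowest ratio. The gap of Hspa8 was smaller than that of Hspa1a and Hspa1b, and the intervals did not touch.

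Hspa2 and Hspa1l, HSP70 genes best known from male germ cells, were near the limit of detection. Hspa2, on chromosome 12 (76403812 to 76406938), had 10 counts in db/m and 7 in db/db, a ratio of 0.553 with an interval of 0.179 to 1.61, and no difference was detectable at this depth. Hspa1l, on chromosome 17 (34972703 to 34979228), had 3 counts in db/m and 0 in db/db, which is at or under the 3 counts that a count of 0 allows, so no ratio is given. Of 6 germ cell markers, 5 were at 0 in db/m and 6 in db/db, and the 1 count belonged to Dazl.

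Summed over the 5 cytosolic HSP70 genes, the level was 844 CPM in db/m and 136 CPM in db/db, or 6.2-fold lower in db/db (5.95 to 6.47). The makeup of this sum differed between the libraries. Hspa1a and Hspa1b gave 54.8% of it in db/m (53.9% to 55.6%) and 9.53% in db/db (8.43% to 10.7%). Hspa8 gave 45.1% in db/m (44.3% to 46%) and 90.2% in db/db (89% to 91.3%). Per count of Hspa8 there were 1.21 counts of the inducible pair in db/m and 0.106 in db/db, a figure that no scaling between libraries changes. These are shares of counts and not of molecules, since longer transcripts give more reads.

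**Figure D2:**
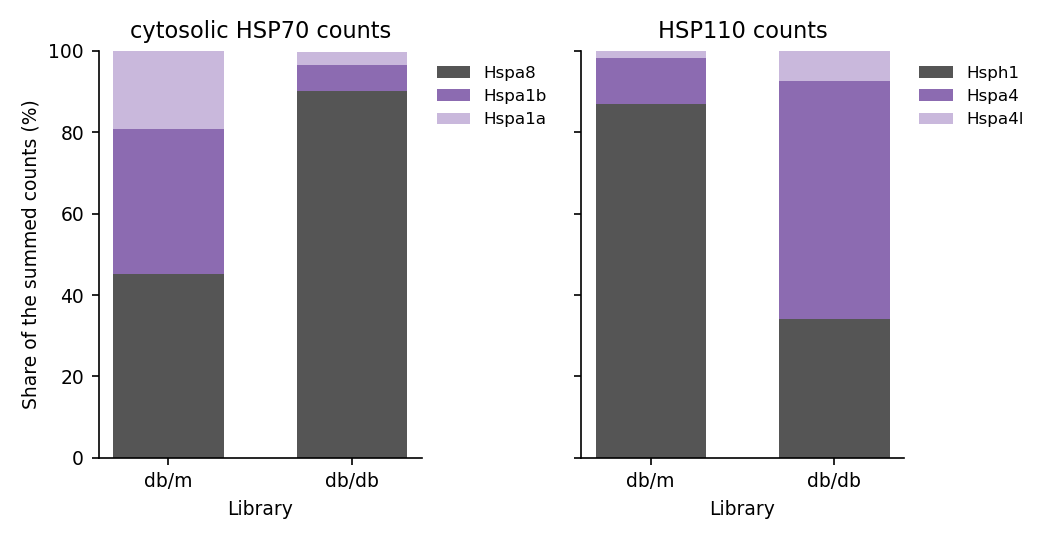
Share of the summed counts taken by each gene, in percent, for cytosolic HSP70 (left) and HSP110 (right) in the db/m and db/db libraries, with no correction for length. Hspa1l and Hspa2, together under 0.3% of the HSP70 counts in each library, are not drawn. Hspa8 took 45.1% in db/m and 90.2% in db/db, and Hsph1 took 87% and 34.2%.

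HSP110 proteins are large HSP70 relatives that act as nucleotide exchange factors and help to dissolve aggregates. Hsph1, the heat-inducible member, lies on chromosome 5 (149616843 to 149636498). It had 4405 counts in db/m and 362 in db/db, or 288 and 18.7 CPM, and was 15.4-fold lower in db/db (13.8 to 17.2), at place 24 of the 10300 genes. Hspa4 (APG-2), the broadly made member on chromosome 11 (53259814 to 53300479), had 566 and 617 counts, or 37 and 31.8 CPM. Its ratio was 0.862 (0.767 to 0.967), well within the 2-fold limit, with a log2 ratio of -0.21 that was -0.04 with total counts. Hspa4l (APG-1), on chromosome 3 (40744500 to 40796103), had 90 and 79 counts, or 5.88 and 4.08 CPM, with a ratio of 0.694 (0.506 to 0.949).

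The gap among HSP110 genes was thus in Hsph1, and the others differed by less than 1.5-fold. The sum of the 3 genes was 331 CPM in db/m and 54.6 CPM in db/db, or 6.05-fold lower in db/db (5.66 to 6.47). Hsph1 gave 87% of this sum in db/m (86.1% to 88%) and 34.2% in db/db (31.4% to 37.2%). Hspa4 gave 11.2% in db/m (10.3% to 12.1%) and 58.3% in db/db (55.3% to 61.3%), so that the most counted HSP110 gene was Hsph1 in db/m and Hspa4 in db/db.

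Neither of the members outside the cytosol was called. Hspa9 (mortalin), the HSP70 of the mitochondrial matrix that pulls imported proteins in and folds them, lies on chromosome 18 (34937414 to 34954351). It had 1453 counts in db/m and 2631 in db/db, or 94.9 and 136 CPM. Its ratio of 1.43 (1.34 to 1.53) was below the 2-fold limit. Hspa13 (STCH), an HSP70 with a shortened core that is found in microsomes although the set was named for cytosol and mitochondria, had 455 and 661 counts on chromosome 16 (75755190 to 75767276). This was 29.7 and 34.1 CPM, a ratio of 1.15 (1.02 to 1.3).

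**Figure D3:**
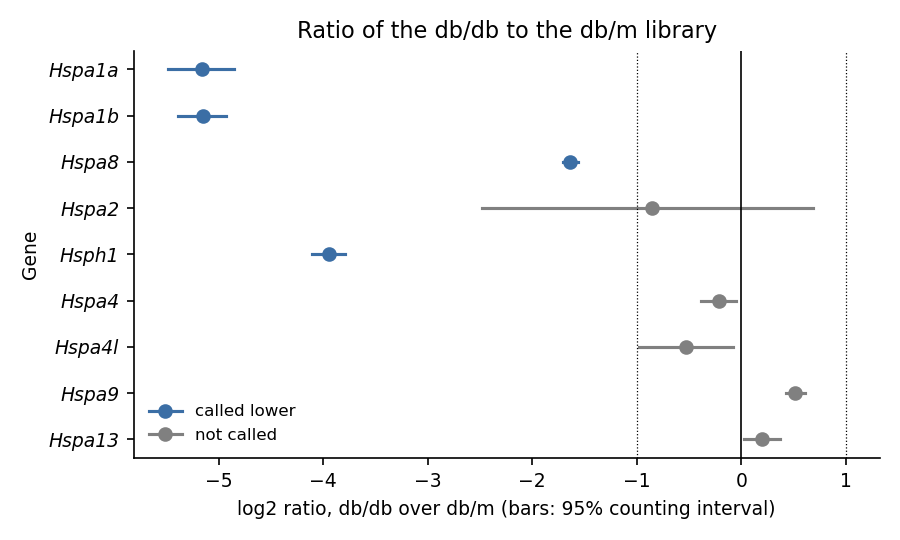
log2 ratio of db/db over db/m for the 9 members with a ratio, with bars for the 95% counting interval, dotted lines at 2-fold and Hspa1l left out because its counts were 3 and 0. Hspa1a, Hspa1b, Hsph1 and Hspa8 lie left of the 2-fold line with their whole intervals, and Hspa9 and Hspa13 lie right of 0.

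Gene entries for small RNAs made from the introns of Hspa8 also had counts. Snord14c, Snord14d and Snord14e are copies of the U14 small nucleolar RNA, which takes part in ribosomal RNA processing, and all lie within Hspa8. Snord14c had 227 counts in db/m and 14 in db/db and was 20.5-fold lower (12 to 38.1). Snord14d (334 and 12 counts) was 35.2-fold lower (19.9 to 68.8), and Snord14e (240 and 8 counts) 38-fold lower (19 to 88.9).

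Together they had 801 and 34 counts and were 29.8-fold lower in db/db (21.2 to 43.3), a wider gap than that of Hspa8 itself. The counts of the 3 small RNAs equalled 13.7% of the Hspa8 counts in db/m and 1.43% in db/db. The other 120 small nucleolar RNA genes of the table summed to 656 counts in db/m and 839 in db/db, a ratio of 1.01 (0.912 to 1.12). Of the 7 of them with at least 1 CPM, 1 was called lower and 0 higher. The lower gene was Snord52 (31 and 2 counts), which lies near Hspa1b and reached 1 CPM through db/m. Snord14a, a U14 copy on chromosome 7, had 2 and 3 counts. The copies are similar in sequence, and neither the use of strand in counting nor any size selection is stated, so their single values are uncertain. Reads of unspliced Hspa8 RNA over these entries cannot be told apart from the small RNAs, which also limits the sum.

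Genes beside the inducible pair on chromosome 17 were low in db/db on one side. Hspa1a and Hspa1b are both read towards lower coordinates and are 10121 bases apart. Gm8696, a pseudogene 1657 bases past the 3′ end of Hspa1b (34954213 to 34954772), had 246 counts in db/m and 0 in db/db. The non-coding RNA 1110038B12Rik, 3958 bases past that end, had 168 and 36 counts and was 5.9-fold lower (4.1 to 8.72). Snord52, a small nucleolar RNA gene within it that was also called lower, had 31 and 2 counts, a ratio of 0.051 with an interval of 0.00591 to 0.2.

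On the other side, Hspa1l starts 547 bases from the Hspa1a start and is read the other way, and had 3 and 0 counts as above. Lsm2, an RNA-binding protein gene 9698 bases from Hspa1a, had 20 counts in db/m and 30 in db/db, a ratio of 1.19 (0.651 to 2.2). Without knowing the strand used in counting, reads of a gene and of a transcript that overlaps it cannot be told apart.

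**Figure D4:**
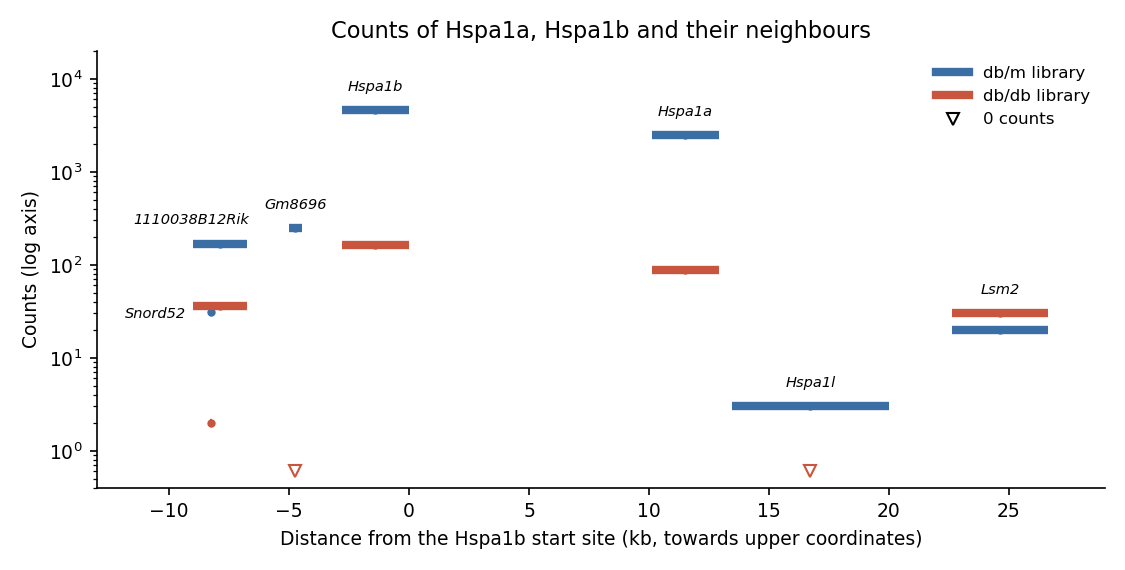
Counts in each library, on a log axis, for genes around Hspa1a and Hspa1b, drawn over their annotated span in kb from the Hspa1b start site. Each thick line is 1 gene in 1 library, and a triangle stands for 0 counts. Hspa1b, Hspa1a, Gm8696, 1110038B12Rik and Snord52 are lower in db/db, whereas Lsm2 had 20 and 30 counts.

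Within 10 kb of the remaining members, 4 genes had at least 10 counts in a library. Etf1 beside Hspa9 had 1422 and 1809 counts, a ratio of 1.01 (0.937 to 1.08), and Zbtb1 beside Hspa2 had 174 and 209, a ratio of 0.949 (0.773 to 1.17). Plk4, a centriole kinase gene 3848 bases from Hspa4l, had 20 and 55 counts and was called higher at 2.17-fold (1.28 to 3.83). Gm20005, a non-coding RNA 4724 bases from Hsph1, had 10 counts in db/m and 0 in db/db and was under the limit of 1 CPM. The annotated pseudogene Hspa9-ps1 had 0 counts in both libraries.

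Partners of the HSP70 cycle were looked up in 6 lists of 54 genes, 51 of which reached 1 CPM. Of these, 10 were called lower in db/db, 2 higher and 39 neither, with a median log2 ratio of -0.03. The shares over all 10300 genes compared, 4.04% lower and 3.83% higher, are the background for each list below. The J-domain list had 3 lower genes of 15 and a median of -0.37. They were Dnajb1 (622 and 159 counts, 4.95-fold, 4.15 to 5.93), the main stress-induced partner of HSP70, Dnaja1 (118 and 43 counts, 3.47-fold, 2.43 to 5.04) and Dnaja4 (34 and 11 counts, 3.91-fold, 1.93 to 8.56). The other 12 were neither, among them Dnaja2, a constitutive partner of Hspa8, at a ratio of 0.95 (0.829 to 1.09). These 12 were not all flat. Dnajb4 (0.502, 0.403 to 0.623) was just short of the limit, and Dnajb5 and Dnajb6 stood at 0.527 and 0.596. Dnaja3 and Dnajc15 stood at 1.36 and 1.43. Of all 15, 9 had a ratio below 1. DESeq2 size factors, which shift every log2 ratio by -0.0085, would take Dnajb4 past the limit.

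Of 10 nucleotide exchange factors, 1 was lower, 0 were higher and 9 were neither, with a median of 0.26. The lower gene was Bag3 (548 and 303 counts, 2.29-fold, 1.99 to 2.64), which links HSP70 to autophagy. Grpel1, an exchange factor of Hspa9, had a ratio of 1.57 (1.35 to 1.83) beside the 1.43 of Hspa9. The related gene Grpel2 on the same list had a ratio of 0.828 (0.656 to 1.05), so the 2 did not share a direction. Of 12 HSP90 genes and proteins that link HSP70 to HSP90, 2 were lower and 10 neither, with a median of -0.28. Hsp90aa1, the inducible cytosolic HSP90, had 4506 and 782 counts and was 7.29-fold lower (6.76 to 7.88), while Hsp90ab1, the constitutive form, had 6196 and 5156 counts and a ratio of 0.658 (0.634 to 0.683). The other lower gene was the HSP90 co-chaperone gene Chordc1 (53 and 29 counts, 2.31-fold, 1.44 to 3.77). Stip1, which hands clients from HSP70 to HSP90, stood at 0.767 (0.637 to 0.923).

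In the list of small heat shock proteins, the mitochondrial chaperonin and Serpinh1, 4 of 7 genes were lower, 1 was higher and 2 were neither, with a median of -1.10. Hspb1 (932 and 144 counts) was 8.19-fold lower (6.86 to 9.83). The chaperonin genes Hspd1 (2190 and 689 counts, 4.02-fold, 3.69 to 4.39) and Hspe1 (918 and 323 counts, 3.6-fold, 3.16 to 4.09) were lower, although they act in the same compartment as Hspa9. Serpinh1, a collagen chaperone gene, was 2.15-fold lower (1.6 to 2.91), and its call was lost with total counts. Hspb6 had 19 and 67 counts and was 2.79-fold higher (1.65 to 4.91).

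None of the 4 heat shock factor genes and binding partners compared was lower. Hsf1, the main activator of the inducible members, had 157 and 277 counts, a ratio of 1.39 (1.14 to 1.71), and Hsf4 (25 and 67 counts) was called higher at 2.12-fold (1.32 to 3.5). The messenger RNA level of Hsf1 does not measure the activity of the protein, which is largely set after translation. Among other HSP70 superfamily genes, 0 of 3 compared were called. Hspa5 (BiP), the HSP70 of the endoplasmic reticulum, had 7114 and 8849 counts, a ratio of 0.983 (0.953 to 1.01). Hyou1, its HSP110 partner, had 5204 and 8691 counts and a ratio of 1.32 (1.28 to 1.37).

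**Figure D5:**
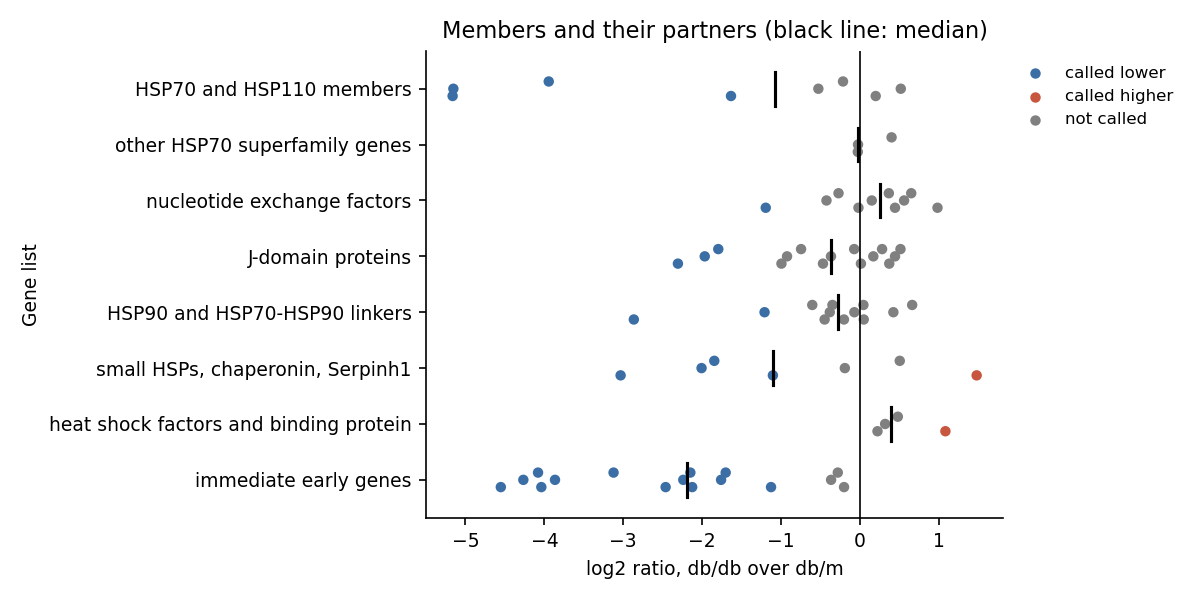
log2 ratio of db/db over db/m for genes averaging 1 CPM or more, by list, with 1 point per gene, a black line at the list's median and colours for the calls. Lower calls reach -5.16 among the members, -3.03 among the partners (Hspb1) and -4.55 among immediate early genes (Atf3), whereas no heat shock factor gene lies below 0.

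Immediate early genes, which answer within minutes to many stimuli and to tissue handling, moved with the inducible chaperones. Of 20 on the list, 16 were compared, of which 13 were lower in db/db, 0 higher and 3 neither, with a median of -2.19. The share called lower over all genes compared was 4.04%. The summed level of the list was 1041 CPM in db/m and 160 CPM in db/db. Those lowest were Atf3 (log2 ratio -4.55), Fosb (-4.27), Egr1 (-4.08) and Jun (-4.04), all nearer to 0 than Hspa1a (-5.16) and Hspa1b (-5.15). Their part in the result was not tested.

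Outside the lists, few abundant genes came near the ratio of the inducible pair. Among the 4148 genes that averaged 10 CPM or more, 1 had a log2 ratio at or below the -5.16 of Hspa1a and Hspa1b summed, and that was Hspa1a. Its place there was fixed, since the ratio of a sum lies between those of its parts. Among all 10300 genes compared, 6 were at or below that value, Hspa1a included. At such ratios a mean of 10 CPM is reached through db/m alone. The gene nearest by difference in log2 ratio was Snord14d (0.02 apart), followed by the complement gene C4b (1.09 apart), the lectin genes Reg2 (1.19) and Reg3b (1.31), and Pdk4 (1.62), a kinase that restrains pyruvate oxidation. This likeness rests on 1 ratio between 2 libraries and says nothing of shared control.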

How the data were processed

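Gene counts of 2 mouse islet libraries (db/m and db/db) were used. The authors deposited whole-number counts per gene in 1 table. The aligner was HISAT2 2.0.4 and the builds mm10 and GRCm38, per the submitters' processing notes. Islets were freed by collagenase, purified on Histopaque and lysed for total RNA, from which ribosomal RNA was depleted, per the labels' protocols. The counting program and strand setting were not given in the sources used here.

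TMM factors came from edgeR 4.0.16 in R 4.3.3. Ratios have exact Clopper-Pearson intervals of the share of counts (Python 3.11.15, scipy 1.17.1), checked on simulated data. The intervals cover counting error only and take reads as independent. Reads copied by PCR are not, so the intervals may be too narrow. With 1 library per group no p-value was computed. Alternatives were total counts, DESeq2 1.42.0 size factors, total counts without acinar and hormone genes, and other filters, fold limits and intervals. Division by exon length, planned for family shares, was not used, since the annotation table gives genomic spans. Named genes are the members, called partners, neighbours within 10 kb with at least 10 counts, the 4 lowest immediate early genes and the 5 nearest in ratio. Other genes named, such as Dnaja2 and further uncalled J-domain genes, Grpel1, Grpel2, Hsp90ab1, Stip1, Hsf1, Hspa5, Hyou1, Dazl, Snord14a and the hormone genes, were chosen after their values were seen. Members and lists were chosen with earlier results of these data known. Start windows, spans and positions come from RefSeq on GRCm38.p6, matched by symbol.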

Additional observations from a re-analysis of the deposited data

How the results depend on the processing

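The count of 4 members called lower and 0 called higher was the same with total counts, DESeq2 size factors, total counts without acinar and hormone genes, no filter, a filter of 10 CPM, a fold limit of 1.5, an interval beyond 2-fold and a Bonferroni interval. With a limit of 4-fold, 3 were lower and Hspa8 was not called. The share over all genes compared changed with the setting. For lower calls it was 8.87% at a limit of 1.5, 0.738% at 4-fold and 1.33% for an interval beyond 2-fold. For higher calls these shares were 8.63%, 0.757% and 0.961%. With total counts, 2.69% were lower and 5.48% higher, and without a filter 1.82% and 1.67%. These 2 shares were 4.08% and 3.77% with DESeq2 size factors, and 2.72% and 5.42% without acinar and hormone genes in the total. With a filter of 10 CPM they were 2.29% and 0.868%, and with the Bonferroni interval 2.07% and 1.34%. The log2 ratio of summed cytosolic HSP70, -2.63, was -2.46 with total counts and -2.47 without acinar and hormone genes in the total, because these scalings add 0.18 and 0.17. It was -1.63 without Hspa1a and Hspa1b and -5.12 without Hspa8. For summed HSP110 the value of -2.60 was -2.42 and -2.43 with those scalings. Of the partner genes, 9 were lower and 3 higher with total counts (Serpinh1 lost, Bag2 gained), and 11 and 2 without a filter. No member changed direction under these scalings. Shares per exon length and per longest transcript were not run. No paired analysis was possible because each group has 1 library, although both titles carry the same number. The depth gives no usable ratio for Hspa1l and a wide interval for Hspa2.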

Other observations

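The balance between HSP110 and cytosolic HSP70, a quantity chosen after the values were seen, was nearly the same in both libraries. The 3 HSP110 genes gave 28.1% of the counts of both families in db/m (exact binomial interval 27.5% to 28.8%) and 28.6% in db/db (27.2% to 30.1%), while each family's sum was about 6-fold lower in db/db (6.2-fold for HSP70, 6.05-fold for HSP110).

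The mitochondrial folding genes Hspa9 and Hspd1, also singled out after their values were seen, had ratios of 1.43 (1.34 to 1.53, not called) and 0.249 (0.228 to 0.271, called lower). Hspa9 gave 39.9% of their summed counts in db/m (38.3% to 41.5%) and 79.2% in db/db (77.8% to 80.6%), and per count of Hspd1 there were 0.663 counts of Hspa9 in db/m and 3.82 in db/db. No scaling between libraries enters these shares.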
